A study of Mus musculus with 6 samples.

Results

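The genes of the T cell receptor complex and its first signalling steps were followed in regulatory T cells (Treg) that lack or keep KAP1, the co-repressor protein encoded by Trim28. The 10 genes were listed by symbol, with earlier results of these data known. They are Cd3e, Cd3d, Cd3g and Cd247, which encode the invariant chains of the receptor, the coreceptor gene Cd4, the kinase genes Lck and Zap70, the adaptor gene Lat, and Cd5 and Cd6, which encode surface receptors that modulate the signal. They are 10 of the 37991 genes in the deposited count table. Bulk RNA was sequenced from YFP-positive Treg, sorted from CD4-enriched cells of mouse spleen, with 3 libraries labelled KAP1 deficient and 3 labelled KAP1 sufficient and wild type. The strain is given as C57BL/6 for deficient replicate 1 and for all sufficient libraries, as C57BL/7 for deficient replicate 2 and as C57BL/8 for deficient replicate 3. The deficient entries rise with the replicate number and may be an error of entry, which the labels do not settle. The labels name no Cre driver, no allele, no age and no treatment, and do not tie libraries to animals, so the p-values here cover the spread between libraries, and that spread may be technical only.

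On T cells, the alpha and beta chains of the receptor bind peptide on MHC molecules but carry no signalling tail of their own. The CD3 chains and the zeta chain encoded by Cd247 bring tyrosine motifs that the kinase LCK, held by the coreceptors, phosphorylates. ZAP-70 then docks on these motifs and phosphorylates the membrane adaptor LAT, from which calcium, Ras and NF-kappaB signalling branch. CD5 and CD6 are related scavenger receptors that collect phosphatases and adaptors at the receptor. CD5 restrains signalling, its level on thymocytes and T cells follows the strength of receptor signalling, and Treg depend on receptor signals for their suppressive function.

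Trim28 went against the label in 2 libraries. It stood at 23.0, 18.6 and 231 counts per 1000000 counts of the library (CPM) in deficient replicates 1, 2 and 3, and at 244, 244 and 21.2 CPM in sufficient replicates 1, 2 and 3. Relative to the mean of sufficient 1 and 2, Trim28 was at 94.9% in the library labelled deficient replicate 3 and at 8.68% in the one labelled sufficient replicate 3. Each gene was therefore compared by label over all 6 libraries, by label over the 4 concordant libraries, whose Trim28 matches it (replicates 1 and 2 of each group), and between the 3 libraries with low Trim28 (deficient 1 and 2 and the one labelled sufficient 3) and the 3 with high Trim28 (the one labelled deficient 3 and sufficient 1 and 2). The last grouping rests on a measured value, is not a grouping of the study, and gives no library another genotype. Libraries held 9954344 to 10994745 counts, so 3 counts, the limit that a count of 0 allows, corresponded to 0.273 to 0.301 CPM. Treg genes were well above this in all 6 libraries, with Foxp3, the lineage factor, at 596 to 747 CPM. Cd8a, the CD8 coreceptor chain, had at most 5 counts, but RNA of other cell type markers was present. The 5 listed CD8 T cell markers summed to 26.0 to 39.7 CPM over the 6 libraries, and the 7 B cell markers to 544 to 697 CPM.

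All 10 genes were abundant, with at least 2897 counts for each in every library, and all 10 passed the filter on low counts in each comparison. Together they took 0.593% to 0.648% of the counts of a library. Scaled by exon length, Lck gave the highest level, at 428 ± 9.84 CPM per kilobase (SD over 6 libraries), and its lowest library stood above the highest of any other of the 10. Lat followed at 244 ± 8.95, Cd4 at 223 ± 16.2 and Cd3d at 213 ± 14.7 CPM per kilobase, and in this order neighbouring genes overlapped between libraries. Cd3g at 164 ± 6.63 and Cd5 at 148 ± 13.3 CPM per kilobase overlapped each other and lay below Cd3d. Zap70 at 108 ± 2.05 and Cd3e at 101 ± 6.48 also overlapped, below Cd5, and Cd6 at 83.3 ± 6.43 and Cd247 at 58.4 ± 5.43 CPM per kilobase came last without overlapping each other or Cd3e. The coefficient of variation of CPM over the 6 libraries ran from 1.90% for Zap70 to 9.31% for Cd247 with a median of 6.65%, beside a median of 5.69% over the 2599 genes with a mean of at least 100 CPM.

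By label, none of the 10 genes passed edgeR's quasi-likelihood test at an adjusted p of 0.05 over all 6 libraries, where 0.0165% of 12158 genes tested passed (0.00823% in each direction). At an unadjusted p under 0.05 there were 0 of the 10 and 944 of the 12158 genes tested, and DESeq2 and limma-voom also called none of the 10. In the 4 concordant libraries, with 2 a group, 4 of the 10 passed, against 17.4% of 12183 genes tested. Of these 1 was higher in deficient cells (Cd3d), against 9.96% of all genes, and 3 were lower (Cd247, Cd4 and Cd5), against 7.39%. Between low and high Trim28 over 6 libraries none passed, where 8.23% of genes passed (4.61% higher and 3.61% lower). An unadjusted p under 0.05 was reached by 3 of the 10, and by 2709 of the 12158 genes tested. Every difference was small: the fitted log2 fold changes of the 10 lay between -0.13 and 0.13 by label, between -0.22 and 0.19 in the concordant libraries, and between -0.20 and 0.12 by Trim28 level. The median log2 fold change of the 10 was -0.06, -0.08 and -0.06 in these 3 comparisons, beside -0.00, -0.00 and 0.00 over all genes tested. The 3 comparisons share libraries, so they do not support one another. Without the library labelled deficient 3, 6 of the 10 passed by Trim28 level (Cd247, Cd3d, Cd3e, Cd4, Cd5 and Cd6), beside 2737 of 12307 genes tested. Without the one labelled sufficient 3, 2 of the 10 passed by label (Cd247 and Cd5), beside 807 of 12336 genes tested.

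**Figure D1:**
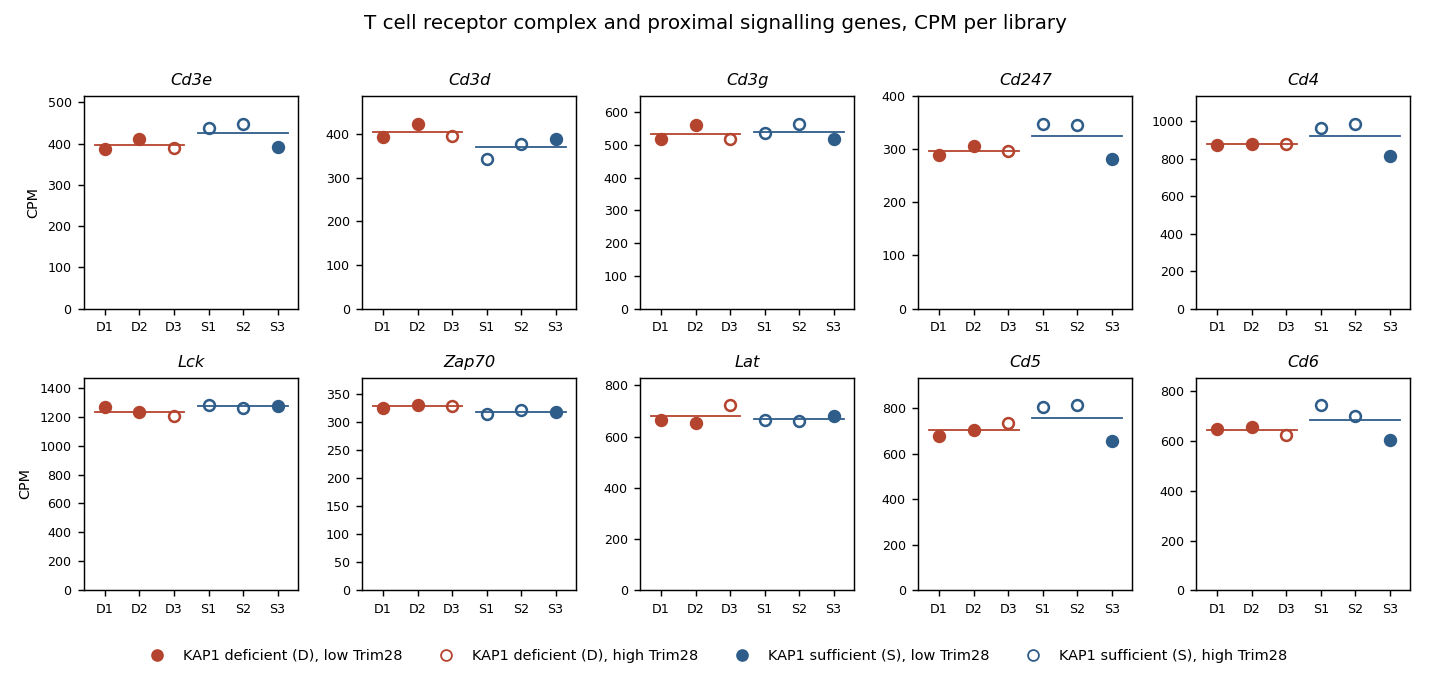
CPM of each of the 10 genes (vertical axes from 0) in each library (D, KAP1 deficient, left; S, KAP1 sufficient, right), with lines at the mean of each labelled group. Filled points are libraries with low Trim28 and open points libraries with high Trim28. Cd3e, Cd3g, Cd247, Cd4, Cd5 and Cd6 show the library labelled sufficient 3 below the other sufficient libraries, and Zap70 and Lck vary least, with Zap70 at a coefficient of variation of 1.90%.

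Of the invariant chains, Cd3d was higher and Cd247 lower in deficient cells in the concordant libraries, and Cd3e and Cd3g did not pass. Cd3e, whose product pairs with the gamma or the delta chain, stood at 387, 412 and 388 CPM in deficient replicates 1, 2 and 3, against 437, 448 and 392 CPM in the sufficient replicates. Sufficient replicates 1 and 2 were above the other 4 libraries, and the labelled groups overlapped through the library labelled sufficient 3. The log2 fold change, deficient over sufficient, was -0.11 ± 0.06 (SE) by label (edgeR adjusted p = 0.668) and -0.14 ± 0.05 in the 4 libraries (0.0745).

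Cd3d, the delta chain gene, stood at 393, 424 and 395 CPM in deficient replicates 1, 2 and 3, against 343, 379 and 389 CPM in sufficient replicates 1, 2 and 3. Every library labelled deficient was above every library labelled sufficient, while low and high Trim28 libraries overlapped. Its log2 fold change was 0.13 ± 0.06 by label (SE, edgeR adjusted p = 0.654), 0.19 ± 0.06 in the 4 libraries (0.0394) and 0.12 ± 0.06 for low over high Trim28 (0.265). The ratio of Cd3e to Cd3d CPM, which does not depend on library scaling, was 0.985, 0.971 and 0.982 in deficient replicates 1, 2 and 3, against 1.27, 1.18 and 1.01 in the sufficient ones. These ranges did not overlap by label. Of the 45 ratios between the 10 genes, 5 did not overlap by label, beside 15.2% of the ratios between genes with a mean of at least 100 CPM, and 14 did not overlap by Trim28 level, beside 33.4%. The ratio of these 2 genes was singled out after its values were seen.

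Cd3g, the gamma chain gene, had 519, 560 and 517 CPM in deficient replicates 1, 2 and 3, against 536, 565 and 519 CPM in the sufficient ones. The groups overlapped almost wholly under both groupings. Its log2 fold change was -0.02 ± 0.06 by label, with a 95% interval of -0.16 to 0.11, and -0.01 ± 0.06 for low over high Trim28 (interval -0.13 to 0.11). Cd3g, Cd3d and Cd3e lie close together on chromosome 9 in mm10 (chr9:44969572-44980431, minus strand; chr9:44981786-44987339, plus strand; chr9:44998740-45009627, minus strand). Of these 3 neighbours Cd3d alone passed in the concordant libraries.

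Cd247, the zeta chain gene and the lowest of the 10 per length, stood at 290, 305 and 296 CPM in deficient replicates 1, 2 and 3, against 348, 346 and 281 CPM in the sufficient ones. Sufficient replicates 1 and 2 were above all other libraries, the library labelled sufficient 3 was the lowest of all, and the library labelled deficient 3 lay among the low Trim28 libraries. Its log2 fold change was -0.13 ± 0.08 by label (edgeR adjusted p = 0.673), -0.22 ± 0.05 in the 4 libraries (0.00854) and -0.17 ± 0.07 for low over high Trim28 (0.166). Without the library labelled sufficient 3 the value by label was -0.23 and passed (0.0246), and without the one labelled deficient 3 the value by Trim28 level was -0.24 and passed (0.00091). Cd247 (chr1:165788681-165877277, plus strand) overlaps Pou2f1 on the other strand, which had up to 1148 counts, and no source used here states how strand was treated in counting.

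The coreceptor gene Cd4 (chr6:124864692-124888221, minus strand) stood at 875, 876 and 879 CPM in deficient replicates 1, 2 and 3, against 967, 988 and 814 CPM in the sufficient ones. The 3 libraries labelled deficient lay close together, inside the range of the sufficient group, and by Trim28 level the groups did not overlap, with all low libraries below all high ones. Its log2 fold change was -0.08 ± 0.07 by label (edgeR adjusted p = 0.790), -0.15 ± 0.05 in the 4 libraries (0.0456) and -0.13 ± 0.06 for low over high Trim28 (0.204). Without the library labelled deficient 3 the value by Trim28 level was -0.19 and passed (0.0059). The cells had been enriched as CD4 T cells before the sort.

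None of the kinase genes and the adaptor gene passed in any of the 3 comparisons. Lck, the Src family kinase bound to CD4 (chr4:129548344-129573641, minus strand), had 1264, 1234 and 1203 CPM in deficient replicates 1, 2 and 3, against 1278, 1262 and 1273 CPM in the sufficient ones, with the labelled groups overlapping narrowly. Its log2 fold change was -0.05 ± 0.05 by label, with a 95% interval of -0.16 to 0.07, and 0.02 ± 0.05 by Trim28 level (interval -0.09 to 0.13). Zap70, the kinase that binds the phosphorylated chains (chr1:36761798-36782818, plus strand), had 325, 329 and 328 CPM in deficient replicates 1, 2 and 3, against 314, 321 and 318 CPM in the sufficient ones. The labelled groups did not overlap but lay close together, and the fitted log2 fold change of 0.04 ± 0.05 did not pass (edgeR adjusted p = 0.821, 95% interval -0.07 to 0.15). Lat, the adaptor gene (chr7:126363824-126369570, minus strand), had 665, 654 and 722 CPM in deficient replicates 1, 2 and 3, against 665, 660 and 680 CPM in the sufficient ones. The library labelled deficient 3 was the highest and the other 5 lay close together, with a log2 fold change of 0.02 ± 0.05 by label (interval -0.10 to 0.15). These intervals limit the size of any difference for the kinases and the adaptor but do not show equal levels.

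Cd5 (chr19:10717116-10739002, minus strand) had the smallest adjusted p of the 10 by Trim28 level. It stood at 678, 703 and 734 CPM in deficient replicates 1, 2 and 3, against 806, 813 and 655 CPM in the sufficient ones. The 3 libraries with low Trim28 had 655 to 703 CPM and the 3 with high Trim28 had 734 to 813 CPM, without overlap, while the labelled groups overlapped. The log2 fold change was -0.11 ± 0.08 by label (edgeR adjusted p = 0.728), -0.22 ± 0.05 in the 4 libraries (0.00615) and -0.20 ± 0.06 for low over high Trim28, where the adjusted p of 0.0503 just missed the threshold. By Trim28 level it passed in 6 of 13 alternatives: RLE factors (0.048), upper-quartile factors (0.0316), no filter (0.0108), DESeq2 (0.0299), the replicate block (0.0338) and without the library labelled deficient 3 (0.000452). It did not pass with limma-voom (0.0578), a non-robust fit (0.0629) or with any other library left out (0.0975 to 0.223).

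Cd6 (chr19:10789341-10830058, minus strand), which encodes the related receptor and lies near Cd5, had 650, 655 and 625 CPM in deficient replicates 1, 2 and 3, against 744, 702 and 605 CPM in the sufficient ones. Sufficient replicates 1 and 2 were the highest, and the libraries labelled deficient 3 and sufficient 3 were the lowest although Trim28 was high in the first and low in the second. Its log2 fold change was -0.09 ± 0.08 by label (edgeR adjusted p = 0.757), -0.14 ± 0.05 in the 4 libraries (0.0748) and -0.11 ± 0.07 by Trim28 level (0.378).

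**Figure D2:**
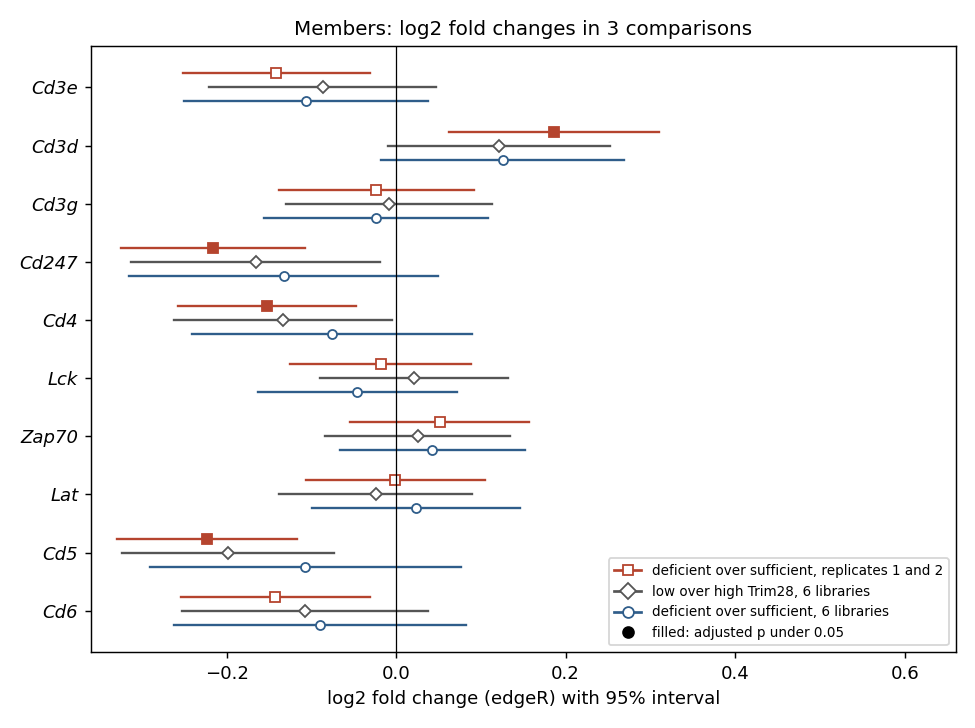
Fitted log2 fold changes (horizontal axis, edgeR) with 95% intervals for the 10 genes in 3 comparisons: deficient over sufficient in replicates 1 and 2 (squares), low over high Trim28 in 6 libraries (diamonds), and deficient over sufficient in 6 libraries (circles). Filled symbols have an adjusted p under 0.05, which only Cd3d, Cd247, Cd4 and Cd5 reach, and only in the 4 libraries. All values lie between -0.22 and 0.19.

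Across the 10 genes, the libraries fell into a common pattern for some members only. Sufficient replicates 1 and 2 stood above the other 4 libraries for 5 genes (Cd3e, Cd247, Cd4, Cd5 and Cd6), below them for Cd3d, and among them for Cd3g, Lck, Zap70 and Lat. Such a separation in either direction was found for 35.3% of all genes tested. By label, 2 of the 10 (Cd3d and Zap70, both higher in deficient libraries) did not overlap, beside 12.8% of all genes and 6.73% for higher alone, and by Trim28 level 2 of the 10 did not (Cd4 and Cd5, both lower with low Trim28), beside 26.4% and 14.5% for lower alone. The counts by label and by Trim28 level are thus near those over all genes. Of the 10, only Cd5 had an adjusted p under 0.05 in the authors' deposited table, against 6.87% of the 12072 genes with an adjusted p there. The log2 fold change of Cd5 in the authors' deposited table was 0.19 ± 0.06 (SE), with an adjusted p of 0.0156 and a q-value of 0.329. The header of the authors' deposited table does not say which group is on top, and Trim28 was positive in it at 3.11, so positive values were read as higher in the group with more Trim28. In the deposited counts Trim28 had a log2 fold change, deficient over sufficient, of only -0.90 ± 1.46 by label and of -3.54 ± 0.08 in the concordant libraries. The concordant libraries were chosen by their Trim28, so this second value and its SE follow from that choice and test nothing. Which libraries the authors' deposited table set against each other is not in its header. The authors' deposited table gave 0.15 ± 0.07 for Cd247, 0.13 ± 0.06 for Cd4 and -0.11 ± 0.06 for Cd3d, none with an adjusted p under 0.05. With the sign turned, the values of Cd4 and Cd5 in the authors' deposited table lie nearer to the fits for low over high Trim28 (-0.13 and -0.20) than to those by label (-0.08 and -0.11). Fits in the concordant libraries, given above, were of similar size. The authors gave -1.71 for Yes1 and -0.99 for Klrb1c, beside 3.83 and 1.97 for low over high Trim28, so the scales may differ. That table is not read here as a comparison of the libraries as labelled, and these values do not settle which libraries it compared.

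Other measures moved with Trim28 level too. Mitochondrially encoded genes took 1.33% to 1.41% of counts in low Trim28 libraries and 1.61% to 2.1% in high ones. The 7 B cell markers summed to 544 to 581 CPM in low Trim28 libraries and 606 to 697 CPM in high ones, almost all of it Ighm. Ms4a1 was at or near 0, and 3 of the 7 B cell markers had at most 13 counts in any library. The 4 that were tested all had log2 fold changes below 0 by Trim28 level. For 4 of the 7 all low Trim28 libraries were below all high ones, beside 14.5% of all genes. The 5 CD8 T cell markers summed to 26.0 to 28.3 CPM in low Trim28 libraries and 32.9 to 39.7 CPM in high ones, and the 4 matched natural killer and gamma delta markers to 19.2 to 24.8 CPM in low and 9.21 to 11.6 CPM in high ones, of which Tcrg-C1 is also a receptor constant gene, with Ncr1 and Klra8 at 0 in every library. The 7 myeloid markers summed to 44.4 to 47.9 CPM in low Trim28 libraries and 37.7 to 39.3 CPM in high ones, with Itgax at 0 in every library. Of the 7, 5 had at most 4 counts in any library. The 2 that were tested, Cst3 and Itgam, did not pass by Trim28 level (edgeR adjusted p = 0.0591 and 0.334). Of these lists, Nkg7, Cd22 and Igkc were lower and Klrb1c and Tcrg-C1 higher with low Trim28 by edgeR. The call of Cd22 was lost with limma-voom (adjusted p = 0.0507), with the replicate block (edgeR, 0.0519) and without any library but the one labelled deficient 3 (edgeR, 0.0577 to 0.123), and that of Igkc without deficient 2 (0.0507). Their part in the differences of Cd4 and Cd5 was not tested, and in bulk RNA fewer cells of a type and less RNA per cell cannot be told apart. The 5 Treg markers, fixed as a list with Foxp3, Il2ra, Ctla4, Ikzf2 and Tnfrsf18, had no call by label or by Trim28 level. Over all genes 0.0165% and 8.23% passed there. In the 4 libraries Foxp3 was lower (log2 fold change -0.25 ± 0.05, edgeR adjusted p = 0.00509) and Ikzf2, which encodes Helios, higher (0.19 ± 0.05, 0.0167). Over all genes tested in the 4 libraries, 7.39% were lower and 9.96% higher.

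Upstream sequences are shown for the genes that passed in the concordant libraries and have an entry in the RefSeq promoter table: Cd5 and Cd247, which were lower, and Cd3d, which was higher. Each is the 250 bases before the start annotated in RefSeq on GRCm38.p6, 5′ to 3′ on the gene's strand. Gene positions given above are from GENCODE M21, whose start of Cd5 lies inside the RefSeq window. Capitals mark AGGAAG or its reverse complement CTTCCT, a core bound by ETS family factors, which are known regulators of T cell genes.
Cd5 (chr19:10738975-10739224, minus strand): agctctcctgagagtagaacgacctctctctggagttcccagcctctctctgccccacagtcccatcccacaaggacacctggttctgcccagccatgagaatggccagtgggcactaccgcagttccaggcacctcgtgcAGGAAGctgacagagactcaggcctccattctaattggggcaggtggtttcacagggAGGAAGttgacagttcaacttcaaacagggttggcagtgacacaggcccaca
Cd247 (chr1:165788431-165788680, plus strand): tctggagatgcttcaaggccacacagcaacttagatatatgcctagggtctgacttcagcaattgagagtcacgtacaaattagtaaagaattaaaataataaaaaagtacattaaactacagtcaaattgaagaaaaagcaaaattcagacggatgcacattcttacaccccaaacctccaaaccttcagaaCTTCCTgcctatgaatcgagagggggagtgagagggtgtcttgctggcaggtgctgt
Cd3d (chr9:44981536-44981785, plus strand): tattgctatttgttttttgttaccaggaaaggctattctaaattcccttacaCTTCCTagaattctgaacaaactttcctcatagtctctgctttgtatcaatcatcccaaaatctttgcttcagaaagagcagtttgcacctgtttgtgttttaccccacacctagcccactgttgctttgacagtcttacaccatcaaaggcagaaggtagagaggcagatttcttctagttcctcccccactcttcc
The Cd5 window holds the letters at positions -109 and -52 from the start, both on the gene's strand, Cd247 at -57 and Cd3d at -198, both on the other strand. Over the 8 of 10 genes with an entry, 9 of 11 start site windows (81.8%) hold AGGAAG on either strand, beside 29.5% of 32851 windows of the same length. The letters TGTGGT of RUNX factors, searched on both strands, are in 2 of the 11, 1 each of Lck and Zap70, beside 14% of all windows, and overlap no AGGAAG. The genes that were lower and the gene that was higher both hold AGGAAG, and a match is a description of letters, not of binding. The genes without an entry are Cd4 and Cd6.

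The antigen-binding chains were represented by their constant region genes, of which 6 of 7 listed were matched. By label none was called, where 0.0165% of all genes passed. By Trim28 level 3 of the 6 were higher (Tcrg-C1, Tcrg-C2 and Tcrg-C4), 1 was lower (Trac) and 2 did not pass, beside 4.61% higher and 3.61% lower over all genes, and the same 4 genes were called in the same directions in the 4 libraries. Trac, the alpha chain constant gene, stood at 367, 388 and 421 CPM in deficient replicates 1, 2 and 3, against 464, 522 and 366 CPM in the sufficient ones. The low Trim28 libraries were all below the high ones, at a log2 fold change of -0.32 ± 0.07 (adjusted p by edgeR = 0.0135), which did not pass without deficient 1 (0.0707), sufficient 2 (0.068) or the library labelled sufficient 3 (0.0811). The beta chain constant genes Trbc1 and Trbc2 had log2 fold changes of -0.21 ± 0.09 and -0.12 ± 0.06 by Trim28 level and did not pass. For both, the low Trim28 libraries were still all below the high ones. Thus all 6 constant genes had ranges that did not overlap by Trim28 level, 3 lower and 3 higher, beside 26.4% of all genes.

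The gamma chain constant gene Tcrg-C2 (chr13:19304649-19307551) had 22.1, 20.4 and 2.09 CPM in deficient replicates 1, 2 and 3, against 3.37, 4.13 and 18.8 CPM in the sufficient ones. Tcrg-C4 (chr13:19344558-19352756) had 23.0, 24.2 and 4.27 CPM in deficient replicates 1, 2 and 3, against 4.65, 5.11 and 22.1 CPM in the sufficient ones. Both followed Trim28 level in all 6 libraries, including the 2 whose Trim28 goes against the label. Only these 2 libraries tell the groupings apart. The log2 fold changes were 2.69 ± 0.18 and 2.31 ± 0.12 for low over high Trim28 (edgeR adjusted p = 1.27e-07 and 1.03e-08), and neither gene passed by label. Tcrg-C1 was 0.61 ± 0.16 higher (0.0276) and did not pass with DESeq2 (0.0577) or without deficient 1 (0.148), deficient 2 (0.0593) or sufficient 1 (0.115). Some gamma constant genes are near-identical copies in part, so the split of reads among such copies is uncertain, which was not tested here.

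**Figure D3:**
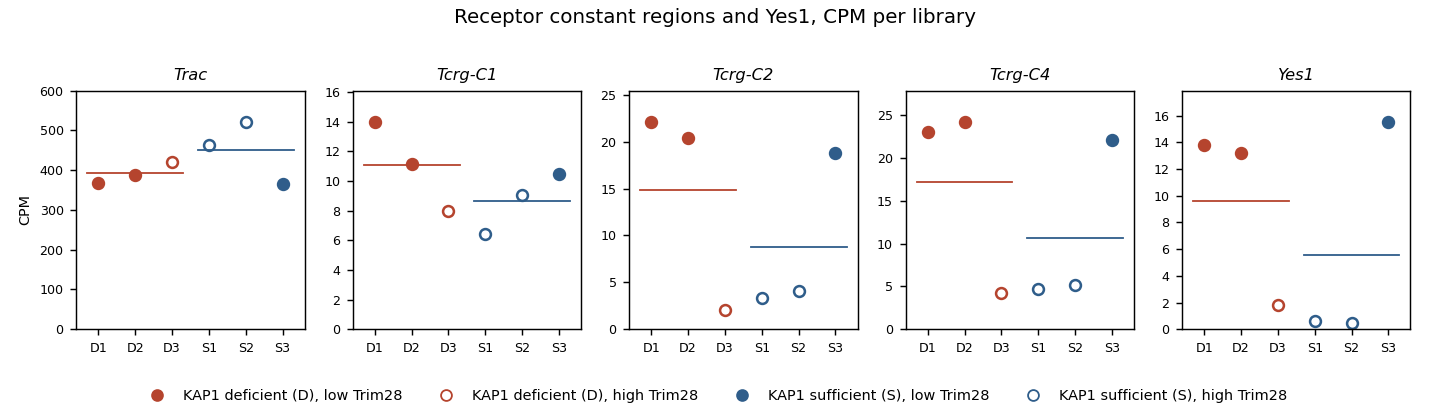
CPM (vertical axes from 0, scaled for each gene) of the alpha chain constant gene Trac, 3 gamma chain constant genes and the Src family kinase gene Yes1 in each library, with lines at the mean of each labelled group. Libraries with low Trim28 (filled) stand above those with high Trim28 (open) for all but Trac, whichever the label. For Trac they stand below.

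Among 30 other genes that carry the receptor signal, none was called by label. By Trim28 level 1 was higher (Txk) and 2 were lower (Nfatc1 and Malt1), and 27 did not pass. In the 4 libraries 5 were higher, 4 were lower and 21 did not pass. The shares over all genes were 0.0165% by label, 8.23% by Trim28 level and 17.4% in the 4 libraries. Nfatc1, a calcium-driven transcription factor of activated T cells, had 216, 236 and 297 CPM in deficient replicates 1, 2 and 3, against 322, 359 and 213 CPM in the sufficient ones. Its low Trim28 libraries were all below the high ones, with a log2 fold change of -0.55 ± 0.07 (adjusted p by edgeR = 0.000176). Malt1, the protease of the complex that leads to NF-kappaB, changed by -0.42 ± 0.05 (0.000188), and Txk, a Tec family kinase, by 0.26 ± 0.06 (0.00868), with Txk not passing without deficient 1 (0.0706). The median over the 30 was 0.04 by Trim28 level, beside 0.00 over all genes.

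Of 19 genes that restrain the signal, none was called by label, 2 were lower by Trim28 level (Dgkz and Ptprj) and 17 did not pass. In the 4 libraries 1 was higher, 5 were lower and 13 did not pass. The shares over all genes were the same 0.0165% by label, 8.23% by Trim28 level and 17.4% in the 4 libraries. Dgkz, which encodes a kinase that removes diacylglycerol, had 839, 836 and 909 CPM in deficient replicates 1, 2 and 3, against 1021, 997 and 808 CPM in the sufficient ones. All low Trim28 libraries were below all high ones, with a log2 fold change of -0.23 ± 0.06 (adjusted p by edgeR = 0.0257), close in size to the -0.20 ± 0.06 of Cd5. Leaving out any of the other 5 libraries in turn, but not the one labelled deficient 3, ended the call of Dgkz (0.0847 to 0.138). Ptprj, a receptor phosphatase, changed by -0.41 ± 0.12 (0.047), and did not pass with DESeq2 (0.126), limma-voom (0.0505), a non-robust fit (0.0555) or without deficient 1 or any sufficient library (0.0911 to 0.208).

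The Src and Syk families and their adaptors held 12 listed genes, of which 8 were tested, Lck and Zap70 among them. By Trim28 level 2 were higher (Yes1 and Src), none was lower and 6 did not pass, beside 8.23% of all genes called. Yes1, a Src family kinase gene (chr5:32611171-32687057), had 13.8, 13.2 and 1.82 CPM in deficient replicates 1, 2 and 3, against 0.594, 0.491 and 15.5 CPM in the sufficient ones. Every library with low Trim28 was above every one with high Trim28, with a log2 fold change of 3.83 ± 0.28 (adjusted p by edgeR = 5.83e-07). The value was 4.68 without the library labelled deficient 3 and 4.61 ± 0.28 in the 4 concordant libraries. Src changed by 0.57 ± 0.10 (0.00251), at 19.2 to 31.7 CPM over all libraries. Fyn, the other abundant Src family kinase gene of T cells, had a log2 fold change of 0.17 ± 0.05 by Trim28 level, which did not pass (0.0517), and was 0.17 ± 0.05 higher in the 4 libraries (0.0305).

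**Figure D4:**
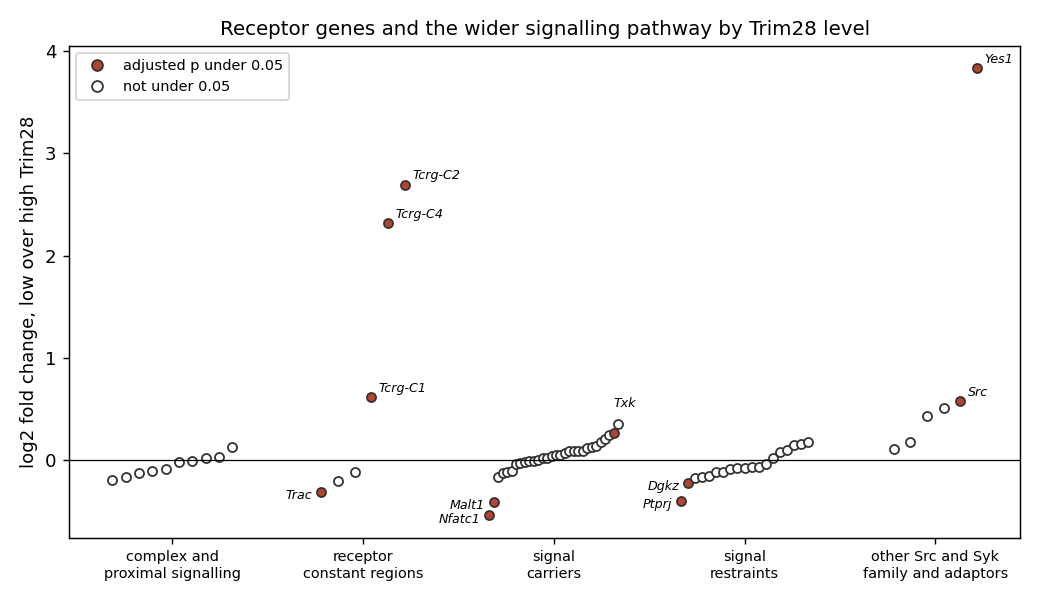
Fitted log2 fold changes for low over high Trim28 (vertical axis, edgeR, 6 libraries) of the 10 receptor and proximal genes and of 4 related lists, each point 1 tested gene, sorted within its list. Filled and named genes have an adjusted p under 0.05. The 10 genes lie between -0.20 and 0.12, while Yes1 at 3.83 and Tcrg-C2 at 2.69 lie furthest from 0.

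The log2 CPM of the 4 invariant chains, each scaled to its own mean and SD, was averaged into 1 profile over the 6 libraries. The chains differed in pattern, with sufficient 1 and 2 above the other libraries for Cd3e and Cd247, below for Cd3d and among them for Cd3g. The profile is thus a composite. The 5 genes most like it, among 4627 with a mean of at least 50 CPM, were Tagln2 (Pearson r = 0.973), Atp5d (0.960), Rpap1 (0.956), Cotl1 (0.952) and Myl12b (0.952). Tagln2, Cotl1 and Myl12b encode proteins of the actin cytoskeleton, Atp5d a subunit of mitochondrial ATP synthase and Rpap1 a factor tied to RNA polymerase. With 6 points that share libraries, and genes chosen as the highest of many, these values describe likeness and carry no test. None of the 5 was called by label, by Trim28 level or in the 4 libraries.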

How the data were processed

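RNA from sorted splenic Treg was made into 6 TruSeq libraries, per the labels' protocols. The authors deposited whole-number raw counts for each Ensembl gene, and a table of their own comparison that per the file headers holds a mean signal, log2 fold changes, their standard errors, a test score, p-values and q-values. The submitters' processing notes list HTSeq 0.7.2, TopHat2 2.1.1, mm10 and DESeq2 without saying how each was used. Annotation release and strand setting: not given in the sources used here. Symbols matched 32919 of 37991 identifiers, and the 5072 without one held 0.603% of counts. Positions and exon lengths are from GENCODE M21 on GRCm38.

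Tests used edgeR 4.0.16 (R 4.3.3, quasi-likelihood, robust, TMM factors, filterByExpr) with Benjamini-Hochberg adjustment at 0.05 over all genes tested. Fold changes put deficient, or low Trim28, on top, and SEs come from the fold change and the F value. CPM used library totals without TMM factors. Low and high Trim28 were split at the midpoint of its CPM, and Trim28 was not tested between them. Totals of 9954344 to 10994745 counts set the precision, and floors cover counting error only. Between libraries, chi-square per degree of freedom was at least 2.43, so none was treated as a duplicate. No label says what a shared replicate number means, so the numbers were not used as pairs. Deviations of same-numbered libraries from their labelled group correlated at -0.359, -0.281 and -0.600, which says little about pairing, since each labelled group holds 1 library whose Trim28 goes the other way. Alternatives were RLE and upper-quartile factors, no filter, DESeq2 1.42.0, voom from limma 3.58.1, a non-robust fit, a replicate block and leaving out libraries. Other steps used scipy 1.17.1, numpy 2.4.6, pandas 2.3.3 and matplotlib 3.10.9 (Python 3.11.15).

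The genes, the 10 lists with 107 entries and the tests were chosen with earlier results of these data known. Genes were named by rule: Trim28, the 10 genes, 4 Treg markers, up to 4 called genes of each list or the 2 with the smallest p, and the 5 genes nearest in profile. Genes named beyond it (Trbc1, Trbc2, Fyn and the marker genes at or near 0) were chosen after their values were seen.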

Additional observations from a re-analysis of the deposited data

How the results depend on the processing

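By label, 0 of the 10 genes and 2 genes in all were called. The count of all genes was 6 with DESeq2, 1 with limma-voom, 1 with the non-robust fit, 0 with the replicate block, 1 to 807 with 1 library left out (807 of 12336 tested without the one labelled sufficient 3) and 2114 of 12183 tested in replicates 1 and 2 only. Of the 10, 0 to 2 were called with 1 library left out (Cd247 and Cd5 without the one labelled sufficient 3) and 4 in replicates 1 and 2 only. By Trim28 level, 0 of the 10 and 1000 genes were called, and 1676 with no filter and 556 to 2737 with 1 library left out (2737 of 12307 tested without the one labelled deficient 3). Cd5 alone was called, so 1 of the 10, with RLE factors, upper-quartile factors, no filter, DESeq2 and the replicate block, and 0 to 6 with 1 library left out, 6 without the one labelled deficient 3 (Cd247, Cd3d, Cd3e, Cd4, Cd5 and Cd6). The split of all calls was 561 higher and 439 lower, and 489 and 562 with upper-quartile factors. No label says that shared numbers pair the libraries, and this could not be settled from the data. The replicate block gave 1117 calls by Trim28 level, and both libraries that Trim28 sets against their label carry number 3. Of 140 values of the 10 genes under alternatives by label, 130 kept their direction and side of the threshold, 6 passed it and 4, all uncalled and near 0, changed sign; by Trim28 level these were 112, 11 and 7 of 130. Differences of the size seen here rest on 2 or 3 libraries a group, and the cause of the changed calls was not tested.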
